A study of Mus musculus with 45 samples.

Results

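Nuclear receptor genes encode transcription factors, most of which are switched by small fat-soluble molecules. The 43 genes described here were chosen by symbol from a table of gene counts with 24918 entries, and the clock receptors Nr1d1 and Nr1d2 were left out by that choice. Expression was measured by RNA sequencing in the colonic epithelium of 15 male C57BL/6 mice that were 6 weeks old when the diets began, in 3 groups of 5. Control mice received a low-fat diet (10% fat) for 20 weeks. Obese mice received a high-fat diet (60% fat) for the same 20 weeks. Formerly obese mice spent 15 weeks on the high-fat diet, and the low-fat diet then filled the last 5 weeks. The labels name no engineered allele, and all 3 groups had the same age and time on study at the end. Of the 43 genes, 33 had enough counts to be tested. The other 10 (Rarb, Rxrg, Rorb, Nr2f1, Pgr, Esrrb, Nr4a3, Nr5a1, Nr0b1 and Nr0b2) were at or close to 0, and Nr0b1 had a count of 0 in every library.

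Nuclear receptors bind hormones, vitamins, bile acids, fatty acids or oxysterols in one domain and DNA in another, and many act as pairs with a retinoid X receptor on repeats of the half-site AGGTCA. Bound receptors exchange corepressors for coactivators and so raise or lower the transcription of nearby genes. In the intestine the family is known for keeping the enterocyte program (HNF4), for calcium uptake (the vitamin D receptor), for sensing bile acids (FXR, encoded by Nr1h4) and for fat oxidation (the PPARs). Other members, the orphan receptors, have no agreed natural ligand or act without one.

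The libraries held 15230391 to 22762095 gene counts, with the highest total in formerly obese replicate 3, and the 43 genes together took 0.408% to 0.440% of the counts in each library. The epithelial label was checked against marker lists. All 9 epithelial markers were detected, with a summed level of 14540 to 17409 counts per 1000000 counts of the library (CPM), while 6 smooth muscle markers summed to 0.223 to 2.70 CPM, 6 fibroblast markers to 2.34 to 30.7 CPM and 6 immune markers to 11.6 to 37.5 CPM over the 15 libraries. Of these lists, 0 of 6 smooth muscle, 4 of 6 fibroblast, 1 of 4 endothelial, 1 of 5 neural and 4 of 6 immune genes had enough counts to be tested, and edgeR called 0 of those tested. The 4 fibroblast genes nevertheless all had positive log2 fold changes, with medians of 0.66 between obese and control mice and 1.09 between formerly obese and control mice, and so did the 4 immune genes, with medians of 0.31 and 0.36. Their part in the receptor results was not tested. Of 4 adipocyte markers, Cidec was called higher in formerly obese than in control mice (log2 fold change 0.93), whereas Plin1 and Lep were at 0 in every library and Adipoq was too low to be tested. That Cidec call was lost without control replicate 2 or formerly obese replicate 1, with log2 fold changes of 0.84 and 0.70. Each library came from whole epithelium, so fewer cells of a type and less RNA per cell cannot be told apart in any value below.

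Levels of the receptors spanned more than 3 orders of magnitude when counts were divided by exon length. Hnf4a, which maintains the enterocyte program, had the highest level at 266 CPM per kilobase of exon, with 234 to 279 over the 15 libraries. Vdr, the vitamin D receptor gene, followed at 170.4 CPM per kilobase, with 153 to 192. The ranges of Hnf4a and Vdr did not overlap, and neither did those of Vdr and of Ppard (94.2 CPM per kilobase, 83.2 to 110.6), the PPAR gene linked to fat use in many tissues. Esrra, an orphan receptor gene tied to mitochondrial energy production, was at 76.9 CPM per kilobase, and its highest library (86.7) overlapped the lowest of Ppard. Nr1h4 followed at 53.7 CPM per kilobase and overlapped Nr1i2, the pregnane X receptor gene, at 49.95. In all, 19 of the 43 genes were at 10 CPM per kilobase or more, 12 lay between 1 and 10, and 12 were under 1, among the last Esr1 (0.491) and Rora (0.152), which were the lowest of the tested genes.

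**Figure D1:**
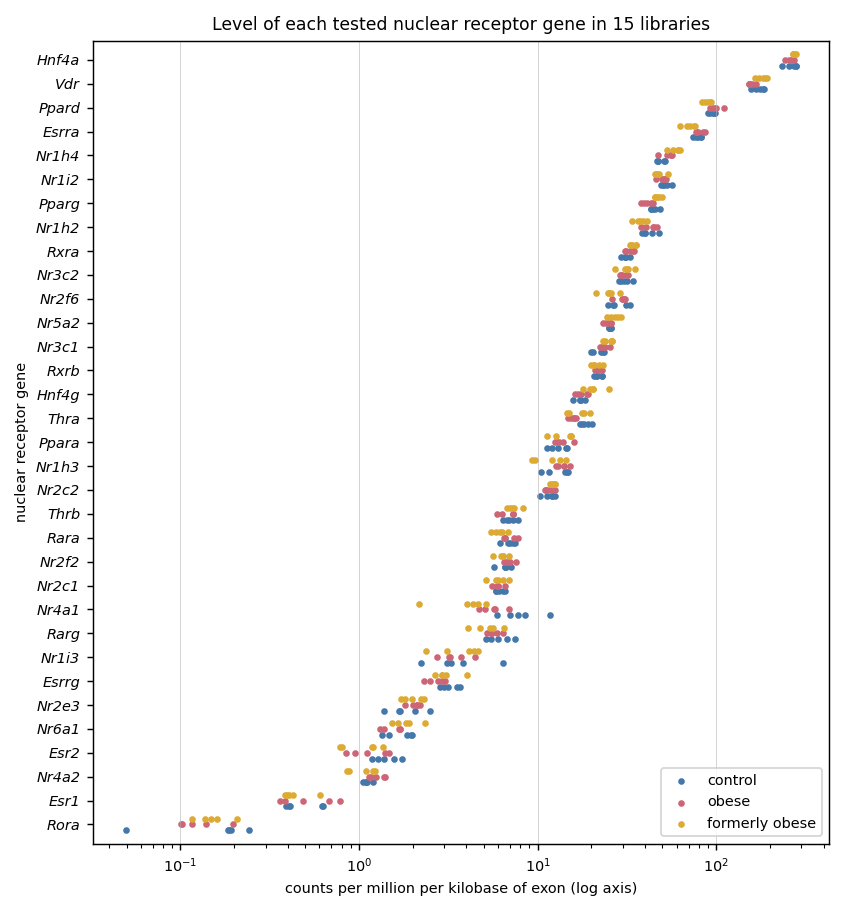
Level of the 33 tested nuclear receptor genes in CPM per kilobase of exon (log axis), ordered by mean; each point is 1 library, coloured by group. Hnf4a and Vdr stand at the top at 266 and 170.4, and Rora at the bottom at 0.152, while within most genes the 3 groups lie over each other.

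To find which receptors differed with the diet, the 3 groups were compared in 1 model over all 12961 tested genes. Calls needed a change of more than 1.2-fold in either direction together with a p-value under 0.01 and a Benjamini-Hochberg adjusted p under 0.25. Between obese and control mice, edgeR called 0 of the 33 receptor genes, beside 1.58% of all tested genes (0.718% higher and 0.864% lower), although 6 of the 33 had an unadjusted p under 0.05, beside 10.9% of all. DESeq2 called 1 of the 33, Nr4a1. Between formerly obese and control mice, 3 were called, beside 3.72% of all tested genes (1.85% higher and 1.87% lower). These were Nr1h4 and Hnf4g, which were higher, and Nr4a1, which was lower. In this comparison 11 of the 33 had an unadjusted p under 0.05, beside 16.7% of all tested genes. Between formerly obese and obese mice, edgeR and DESeq2 both called 0 of the 33, beside 2.65% of all in the edgeR fit (1.23% higher and 1.42% lower), and 11 had an unadjusted p under 0.05, beside 13.4%.

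Most differences were small. The fitted log2 fold changes of the 33 genes ran from -0.54 to 0.19 between obese and control mice, around a median of -0.02. Between formerly obese and control mice they ran from -1.01 to 0.27 with a median of -0.04, and between formerly obese and obese mice from -0.47 to 0.25 with a median of 0.04. The medians over all tested genes were 0.00024, -0.00065 and 0.0023 in the same order. The 5 libraries of each group did not overlap for 1 receptor gene between obese and control mice (Thra, lower), beside 2.47% of all tested genes in either direction (1.21% higher and 1.26% lower). They did not overlap for 2 between formerly obese and control mice (Nr1h4, higher, and Nr4a1, lower), beside 3.62% of all (1.75% higher and 1.87% lower), and for 2 between formerly obese and obese mice (Pparg, higher, and Esrra, lower), beside 3.38% (1.49% higher and 1.89% lower). The 3 comparisons share libraries, so their values are given side by side and not as separate evidence.

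**Figure D2:**
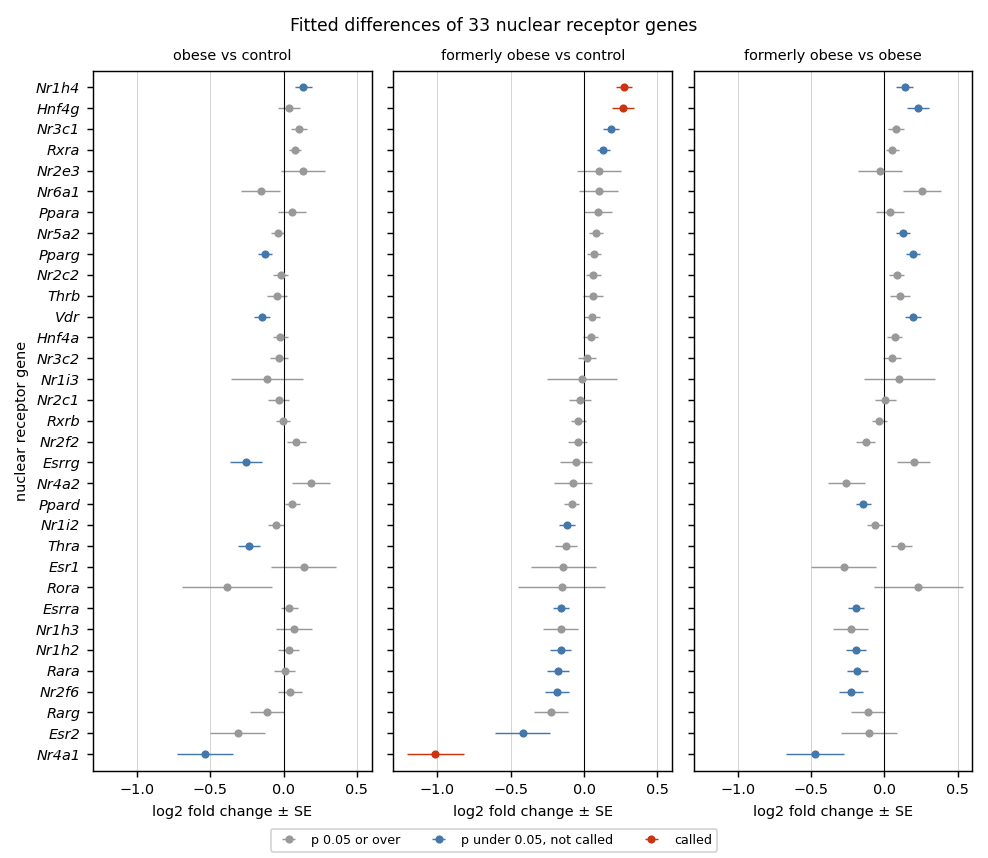
Fitted log2 fold change with its standard error for the 33 tested nuclear receptor genes in the 3 comparisons, ordered by the middle panel; red marks called genes, blue an unadjusted p under 0.05 without a call. Nr4a1 lies at -1.01 and Nr1h4 and Hnf4g lie at 0.27 in the middle panel, and the left and right panels hold no red point.

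Nr4a1, an orphan receptor gene that is induced within minutes by many stimuli as an immediate early gene, had the largest difference. Control mice were at 29.0, 17.3, 19.3, 14.8 and 21.2 CPM, obese mice at 11.6, 14.1, 12.6, 14.3 and 17.2 CPM, and formerly obese mice at 5.36, 12.7, 10.8, 9.98 and 11.4 CPM. Every formerly obese library was below every control library, while the obese libraries overlapped both groups. Its log2 fold change between formerly obese and control mice was -1.01 ± 0.19 (SE), with an edgeR adjusted p of 0.0233, and leaving out any 1 library kept it called, with values from -1.11 to -0.85. Between obese and control mice it was -0.54 ± 0.19 (edgeR adjusted p = 0.317), and between formerly obese and obese mice -0.47 ± 0.20 (edgeR adjusted p = 0.295). The obese difference from control was called by DESeq2, with only the compared groups in the fit, without control replicate 4 and without formerly obese replicate 1. The other NR4A genes did not share this pattern: Nr4a2 had means of 3.71, 4.23 and 3.52 CPM in control, obese and formerly obese mice and was not called, and Nr4a3 had means of 0.0378, 0.0748 and 0.0694 CPM.

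Nr4a1 lies on chromosome 15 at 101266846 to 101274794 (mm10, plus strand). The 250 bases before its start, chr15:101266596-101266845 on GRCm38.p6 from RefSeq, are shown because this gene had the strongest call. Capitals mark TGCGTCA, a sequence close to the cyclic AMP response element, which was looked for on both strands.
Nr4a1 promoter: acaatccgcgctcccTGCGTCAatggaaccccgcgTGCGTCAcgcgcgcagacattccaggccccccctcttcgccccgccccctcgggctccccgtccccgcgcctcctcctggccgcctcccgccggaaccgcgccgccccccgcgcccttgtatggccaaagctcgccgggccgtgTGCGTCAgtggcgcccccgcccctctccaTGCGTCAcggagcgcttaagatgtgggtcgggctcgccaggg
TGCGTCA occurred 4 times in this window, 235, 215, 71 and 42 bases before the start, all in this orientation. Among all 32851 RefSeq windows of the same length, 1.75% held the motif at least once and 1 held it 3 times or more. The motif was chosen after this window had been read, so these shares describe it and test nothing. The full element TGACGTCA was in 1.55% of windows and in 0 of the 60 windows of the 39 receptor genes with a RefSeq entry. For Thra, Nr3c1, Hnf4g and Nr5a1 no promoter sequence was used here.

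Other immediate early genes are given beside Nr4a1, since they answer the same kinds of stimuli. Of 10 tested, 0 were called by edgeR between obese and control mice (median log2 fold change -0.11). Between formerly obese and control mice 7 were called lower and 0 higher, with a median of -0.39, and between formerly obese and obese mice 4 were called lower (Fosb -0.66, Jun -0.41, Junb -0.58 and Ier2 -0.37), also with a median of -0.39. The call of Fosb in the latter was lost without obese replicate 2, 4 or 5 or formerly obese replicate 1, 3 or 5, with values from -0.87 to -0.55 over 15 fits, and that of Ier2 was lost with the GC trend removed (-0.24). Fosb, a subunit of the AP-1 factor, was at 138, 105, 114, 72.3 and 150.2 CPM in control mice and at 45.6, 95.6, 56.2, 67.0 and 42.7 CPM in formerly obese mice. The 2 groups overlapped through formerly obese replicate 2 and control replicate 4. Its log2 fold change was -0.92 ± 0.20 (edgeR adjusted p = 0.0276). Ier2, a short-lived early response gene, was at 125, 116, 106, 109.8 and 143 CPM in control mice and at 96.6, 89.7, 89.5, 85.8 and 81.8 CPM in formerly obese mice, with no overlap and a log2 fold change of -0.43 ± 0.08 (edgeR adjusted p = 0.0233). Junb (-0.47) and Dusp1 (-0.67) were also called in every fit that left out 1 library. The calls of Fos (-0.35), Atf3 (-0.57) and Btg2 (-0.34) were lost without control replicate 1 or formerly obese replicate 1, Fos also without control replicate 3 or 5 or formerly obese replicate 4, Atf3 without formerly obese replicate 5 and Btg2 without control replicate 5, with values from -0.40 to -0.28 for Fos, -0.69 to -0.46 for Atf3 and -0.41 to -0.29 for Btg2 over all such fits. Their part in the Nr4a1 result was not tested.

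**Figure D3:**
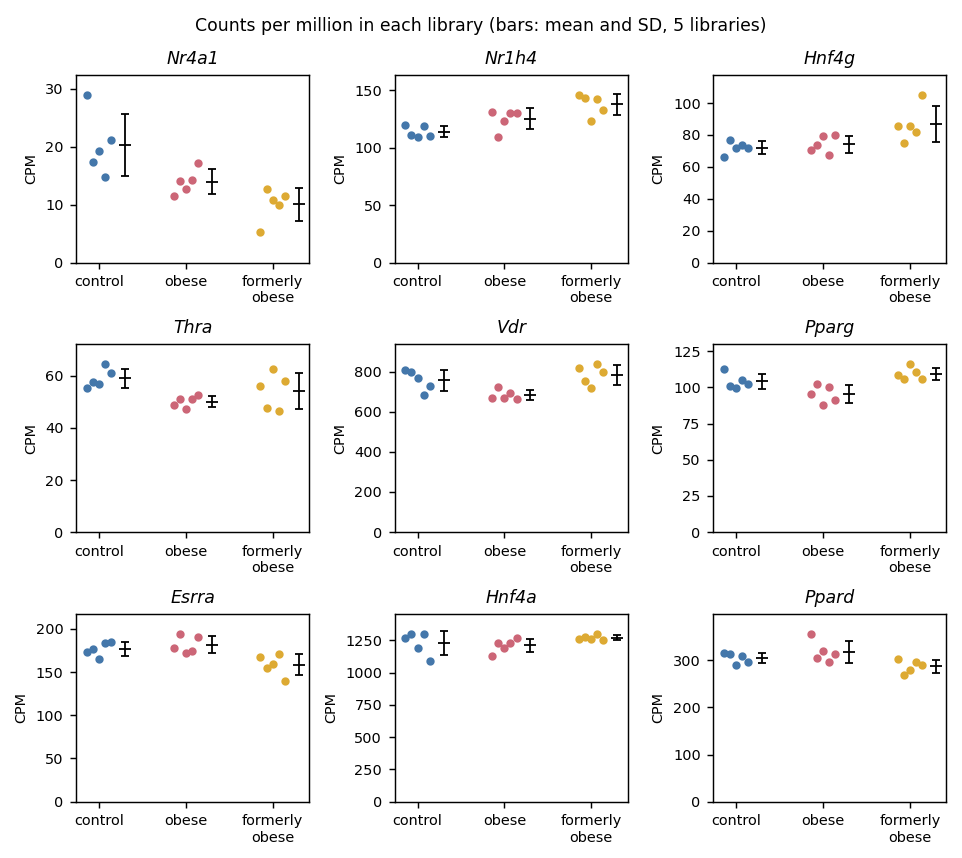
Level in CPM of 9 nuclear receptor genes in each of the 15 libraries, with the mean and SD of 5 libraries beside the points. Nr4a1 is lower in all 5 formerly obese libraries than in the 5 control libraries, Nr1h4 is higher, and Hnf4a and Ppard overlap between all groups.

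Nr1h4 encodes FXR, the receptor for bile acids, and rose in formerly obese mice. Control mice were at 120.2, 111, 109.7, 119 and 110.4 CPM, obese mice at 132, 109.8, 124, 131 and 130.3 CPM, and formerly obese mice at 146, 144, 123, 142 and 133 CPM. All formerly obese libraries were above all control libraries, and 4 of the 5 obese libraries were too. The log2 fold change between formerly obese and control mice was 0.27 ± 0.06 (edgeR adjusted p = 0.0260), close above the 1.2-fold limit. The call was therefore lost in 6 of 15 fits that left out 1 library (control replicates 2, 3 and 5 and formerly obese replicates 1, 2 and 4), with log2 fold changes of 0.25 to 0.26 and adjusted p of 0.0393 to 0.0681. It was also lost with upper-quartile scaling (0.26) and with the GC trend removed (0.26). Between obese and control mice the difference was 0.13 ± 0.06 on the log2 scale (edgeR adjusted p = 0.401), and between formerly obese and obese mice 0.14 ± 0.06 (edgeR adjusted p = 0.285).

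In the count table Nr1h4 spans chromosome 10 from 89454234 to 89533622 (mm10, minus strand). RefSeq has 1 promoter window for it, chr10:89506659-89506908 (GRCm38.p6, minus strand), which belongs to a start inside that span and overlaps no exon of the longer transcript. It is shown as the second called receptor gene with a window, with matches to the receptor half-site AGGTCA or its reverse complement TGACCT in capitals.
Nr1h4 promoter: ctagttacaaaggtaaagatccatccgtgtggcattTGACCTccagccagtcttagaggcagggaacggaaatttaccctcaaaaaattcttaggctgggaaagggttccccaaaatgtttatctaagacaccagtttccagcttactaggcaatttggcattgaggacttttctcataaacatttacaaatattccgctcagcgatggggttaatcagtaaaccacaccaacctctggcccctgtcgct
TGACCT occurred 1 time, 214 bases before the start. The half-site, on either strand, was in 14.0% of all windows and in 10 of the 60 windows of the receptor genes (16.7%), so its presence sets neither this gene nor the family apart. The other receptor genes with a match in at least 1 window were Nr0b1, Nr5a2, Nr6a1, Pparg, Rarg, Rxra, Rxrg and Thrb.

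Bile acid genes known as FXR targets were read beside the receptor. The list was not split into genes that FXR raises and genes that it lowers, so neither its medians nor its calls measure FXR activity. Of 7 listed, 5 were tested, and 2 were called higher between obese and control mice (median log2 fold change of the 5 genes 0.38) and 2 others between formerly obese and control mice (median 0.43). Fabp6, which carries bile acids inside enterocytes, was at 28.7, 16.2, 22.1, 24.6 and 19.9 CPM in control mice, at 49.7, 29.3, 51.9, 41.1 and 114 CPM in obese mice and at 41.4, 32.2, 26.8, 38.8 and 34.1 CPM in formerly obese mice. Each obese library was above each control library, and obese replicate 5 was far above the others. Its log2 fold change was 1.36 ± 0.27 (edgeR adjusted p = 0.0678), and leaving out any 1 library kept it called, down to 0.95. Slc51a, a subunit of the transporter that exports bile acids into the blood, was at 113, 51.8, 90.5, 118 and 99.1 CPM in control and 136, 114, 173, 168 and 163 CPM in obese mice, which overlapped through obese replicate 2. It was called (0.67 ± 0.17, edgeR adjusted p = 0.142), but not without obese replicate 3, 4 or 5 (0.62, 0.63 and 0.64).

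Slc10a2, the apical transporter that takes bile acids up, was at 45.8, 20.8, 57.2, 46.4 and 35.2 CPM in control mice, at 37.2, 41.4, 74.3, 49.96 and 65.1 CPM in obese mice and at 65.1, 73.4, 86.9, 87.2 and 86.3 CPM in formerly obese mice. All formerly obese libraries exceeded all control libraries. Its log2 fold change between them was 0.96 ± 0.21 (edgeR adjusted p = 0.0289), and it was called in every fit with 1 library left out. Slc51b, the partner subunit of Slc51a, was called between formerly obese and control mice (0.34 ± 0.11, edgeR adjusted p = 0.114) and lost its call in 7 of 15 such fits, without control replicate 1, 2, 3 or 5 or formerly obese replicate 1, 3 or 4, with values from 0.27 to 0.42 over the 15. Between formerly obese and obese mice 0 of the 5 genes were called, with a median of 0.14.

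The oxysterol receptors LXR sense cholesterol derivatives. Nr1h2 had means of 84.7, 86.7 and 75.8 CPM and Nr1h3 of 26.7, 28.0 and 24.0 CPM in control, obese and formerly obese mice, and neither was called. Of 10 LXR target genes tested, Mylip, which tags the LDL receptor for degradation, was called lower between obese and control mice (log2 fold change -0.39 ± 0.10, edgeR adjusted p = 0.142) and between formerly obese and control mice (-0.37 ± 0.10, edgeR adjusted p = 0.0658). The list medians were -0.17 and -0.15, and 0.03 between formerly obese and obese mice. The obese call was lost without control replicate 2 (-0.34) and without obese replicate 3, 4 or 5 (-0.34, -0.36 and -0.38).

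Hnf4g, the second HNF4 gene and an activator of enterocyte genes, rose in formerly obese mice. Control mice were at 66.1, 77.0, 72.0, 73.6 and 71.8 CPM, obese mice at 70.4, 73.6, 79.2, 67.4 and 79.8 CPM, and formerly obese mice at 85.9, 74.9, 85.4, 81.8 and 105 CPM. Formerly obese replicate 5 was the highest, and replicate 2 lay within the control range. The log2 fold change between formerly obese and control mice was 0.27 ± 0.08 (edgeR adjusted p = 0.0762). The call was lost without control replicate 1 (0.23) or 3 (0.26), without formerly obese replicate 5 (0.19), with upper-quartile scaling (0.26), with the GC trend removed (0.22) and at an adjusted p under 0.05. Between formerly obese and obese mice it was 0.23 ± 0.08 (edgeR adjusted p = 0.186), called only without formerly obese replicate 2, and between obese and control mice 0.04 ± 0.08 (edgeR adjusted p = 0.901).

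Hnf4a stayed within the spread of its libraries. Control mice were at 1273, 1302, 1192, 1300.2 and 1089.9 CPM, obese mice at 1133, 1233, 1189, 1229 and 1271 CPM, and formerly obese mice at 1260.2, 1280.3, 1265, 1298 and 1254 CPM. The 3 groups overlapped, and the log2 fold changes were -0.02 ± 0.05, 0.05 ± 0.05 and 0.07 ± 0.05 in the order obese against control, formerly obese against control and formerly obese against obese, with edgeR adjusted p of 0.913, 0.693 and 0.601. Of 8 HNF4 target genes 5 were tested. Apob, the apolipoprotein of chylomicrons, was called higher between obese and control mice (0.45) and between formerly obese and control mice (0.43), Fabp2, an intestinal fatty acid carrier, was called higher (0.60) and Ttr, a carrier of thyroid hormone and retinol-binding protein, lower (-0.27) between formerly obese and control mice. The list medians were 0.11, 0.07 and -0.03 in the order above.

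Several of these calls were lost in fits that left out 1 library, while that of Apob in formerly obese mice held without any 1 library. Apob lost its obese call without control replicate 1 or 2 or obese replicate 3, 4 or 5, with log2 fold changes of 0.40 to 0.48. Fabp2 lost its call in 7 of 15 fits, without control replicate 1, 2, 3 or 5 or formerly obese replicate 1, 3 or 5, and was not called by DESeq2, with only the compared groups in the fit or with the GC trend removed. Ttr lost its call without control replicate 2 or formerly obese replicate 1, 2 or 3, with values of -0.26 to -0.23. Apob and Fabp2 are also in a list of 9 small-intestine markers, as is Fabp6, given above among the FXR targets. Of the 6 tested genes of this marker list 3 were called higher between obese and control mice (Apob, Fabp6 and Alpi). Between formerly obese and control mice 5 were called higher (Apob, Fabp2, Sis, Alpi and Reg3g). Summed levels were 743 to 1121 CPM in control, 933 to 1306 CPM in obese and 1143 to 1609 CPM in formerly obese mice. With 1 library left out, Alpi kept its obese call in 5 of 15 fits and its formerly obese call in 7. Reg3g kept its call in 10 of 15 and Sis in 14. Of 7 posterior Hox genes, which mark the distal gut, 1 was called lower between obese and control mice and 5 between formerly obese and control mice, with summed levels of 437 to 539, 378 to 497 and 310.0 to 411 CPM. Of the 5, the calls of Hoxb13 (-0.36) and Hoxd13 (-0.52) held without any 1 library, while Hoxd10 (-0.51) and Hoxd11 (-0.45) each kept theirs in only 6 of 15 such fits, with values from -0.60 to -0.40 and from -0.58 to -0.36. Hoxa13 (-0.31) lost its call without control replicate 1 or 2 or formerly obese replicate 1 or 3 (-0.31 to -0.23) and with the GC trend removed (-0.15). The obese call, that of Hoxd12 (-0.76), was lost without control replicate 2 or 5 or obese replicate 3, 4 or 5 (-0.76 to -0.65). The part of regional sampling in the receptor results was not tested.

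The PPARs are receptors for fatty acids. Ppard was at 315, 314, 289.9, 309 and 295 CPM in control mice, at 356, 304, 319.6, 295 and 313 CPM in obese mice and at 303, 268, 279, 297 and 289.7 CPM in formerly obese mice. The groups overlapped, and the smallest adjusted p was that between formerly obese and obese mice (log2 fold change -0.15 ± 0.05, edgeR adjusted p = 0.213). Pparg, known from fat cells and from the surface cells of the colon, was at 112, 101, 99.9, 105 and 103 CPM in control, 95.4, 102, 87.8, 100.2 and 91.6 CPM in obese and 108, 106, 116, 111 and 106 CPM in formerly obese mice. Every formerly obese library was above every obese one. This difference was 0.20 ± 0.05 on the log2 scale with an edgeR adjusted p of 0.0812, under the 1.2-fold limit and so not called, and between obese and control mice it was -0.13 ± 0.05 (edgeR adjusted p = 0.347). Ppara had means of 98.6, 103 and 105 CPM and was not called.

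Of 21 PPAR target genes 17 were tested, and the list medians were 0.04, 0.04 and 0.02 in the order obese against control, formerly obese against control and formerly obese against obese. Between obese and control mice and between formerly obese and obese mice, 0 of the 17 were called by edgeR. Among them Acaa1b, a peroxisomal thiolase, had the smallest p between obese and control mice, with a log2 fold change of 0.67 ± 0.24 (edgeR adjusted p = 0.326).

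Vdr, the receptor for active vitamin D, was at 809, 798, 766, 684 and 725 CPM in control mice, at 671, 725, 668, 694 and 666 CPM in obese mice and at 817, 755, 716, 836 and 796 CPM in formerly obese mice. Obese libraries lay mostly below both other groups, with an overlap through obese replicates 2 and 4. It differed by -0.14 ± 0.05 between obese and control mice (log2 scale, edgeR adjusted p = 0.334) and by 0.20 ± 0.05 between formerly obese and obese mice (edgeR adjusted p = 0.114), neither of them past the 1.2-fold limit. Of 5 vitamin D target genes 4 were tested, with list medians of 0.52, 0.64 and 0.12. Slc30a10, a manganese exporter, was at 8.78, 5.83, 5.77, 3.88 and 7.27 CPM in control and 22.8, 10.1, 20.4, 18.7 and 16.0 CPM in obese mice, with no overlap. Its log2 fold change was 1.48 ± 0.32 (edgeR adjusted p = 0.0894), and it was called in each fit with 1 library left out.

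Atp2b1, the calcium pump of the basal membrane, rose in formerly obese mice. It was at 261, 272, 272, 271 and 262 CPM in control mice, at 293, 258, 381, 275 and 278 CPM in obese mice and at 388, 392, 353, 365 and 364 CPM in formerly obese mice. All formerly obese libraries were above all control libraries, and only obese replicate 3 reached their range. It rose by 0.48 ± 0.08 on the log2 scale against control (edgeR adjusted p = 0.0121) and 0.33 ± 0.08 against obese mice (edgeR adjusted p = 0.0768), called in every fit with 1 library left out.

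Nr1i2 and Nr1i3 encode the pregnane X and constitutive androstane receptors, which sense foreign compounds. Nr1i2 had means of 131, 127 and 121 CPM and Nr1i3 of 5.32, 4.90 and 5.28 CPM, and neither was called. Nr1i3 shares 257 of its 1414 exon bases with Tomm40l on the opposite strand, so its counts are uncertain. Of 8 of their target genes 5 were tested, with list medians of 0.06, 0.19 and 0.20. Cyp2c55, a colonic cytochrome P450, was called higher in formerly obese mice, with means of 912, 824 and 1249.8 CPM. Its log2 fold change was 0.46 ± 0.14 against control (edgeR adjusted p = 0.106) and 0.60 ± 0.14 against obese mice (edgeR adjusted p = 0.0751). Formerly obese replicate 1 was highest at 1761 CPM, and without it the value against control was 0.30 and no longer called, as was the case without control replicate 1 or 2 (both 0.40).

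Thra, which encodes the thyroid hormone receptor alpha, had the smallest p of the 33 genes between obese and control mice. It was at 55.4, 57.6, 56.9, 64.4 and 60.9 CPM in control mice, at 48.7, 51.3, 47.1, 51.0 and 52.5 CPM in obese mice and at 56.2, 47.8, 62.4, 46.6 and 57.9 CPM in formerly obese mice. The obese libraries were all below the control libraries, and the formerly obese libraries spread over both ranges. Its fitted change was -0.24 ± 0.07 (edgeR adjusted p = 0.225), short of the 1.2-fold limit, and was not called. Thra shares 263 of its 3186 exon bases with Nr1d1 on the opposite strand, and the strand setting of the counting is not given in the sources used here. Thrb had means of 46.0, 44.7 and 48.0 CPM. Of 5 thyroid hormone target genes 4 were tested and 0 were called by edgeR in any comparison, with medians of -0.02, -0.09 and -0.08. Their smallest unadjusted p was that of Hr, a corepressor gene, between formerly obese and obese mice (-0.23 ± 0.08, edgeR adjusted p = 0.213).

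The receptors for retinoic acid and their partners follow. Rxra, the main retinoid X receptor gene, had means of 170.1, 179 and 186 CPM and a log2 fold change of 0.13 ± 0.04 between formerly obese and control mice (edgeR adjusted p = 0.126), and Rxrb had means of 60.6, 60.5 and 59.1 CPM. Rara had means of 30.1, 30.2 and 26.6 CPM and Rarg of 20.9, 19.4 and 17.9 CPM. None of these 4 genes was called. Of 8 retinoic acid target genes 5 were tested, with medians of 0.06, 0.16 and 0.05.

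Other genes make, carry or clear the ligands. Of 21 such enzymes and carriers 12 were tested, with list medians of 0.02, 0.07 and -0.02. Dhrs9, a retinol dehydrogenase, was at 5.48, 7.597, 7.94, 6.59 and 7.08 CPM in control mice, at 9.88, 8.07, 14.7, 14.0 and 13.1 CPM in obese mice and at 13.6, 10.5, 14.1, 11.8 and 10.2 CPM in formerly obese mice. Both diet groups were wholly above control. The log2 fold changes were 0.79 ± 0.16 (edgeR adjusted p = 0.0678) and 0.80 ± 0.16 (edgeR adjusted p = 0.0233), and both calls held without any 1 library. Rbp2 (0.56), an intestinal retinol carrier, and Lrat (0.44), which esterifies retinol, were called higher between formerly obese and control mice in all 15 such fits. Cyp11a1, the first enzyme of steroid synthesis, had a mean of 0.453 CPM in formerly obese and 2.098 CPM in control mice (log2 fold change -2.23 ± 0.62, edgeR adjusted p = 0.0704). Control mice were at 3.49, 3.08, 2.67, 0.616 and 0.643 CPM and formerly obese mice at 0.350, 0.877, 0.267, 0.603 and 0.170 CPM. The 2 groups overlapped through control replicates 4 and 5, and the counts in formerly obese libraries were only 3 to 14. Aldh1a1, a retinal dehydrogenase, was called higher between formerly obese and obese mice (0.71), except without obese replicate 1 or 2 or formerly obese replicate 5 (range 0.63 to 0.83 over the 15 fits). Cyp27a1, a sterol hydroxylase, was called higher in the same comparison (0.33) but in only 5 of the 15 fits with 1 library left out (0.28 to 0.40): those without control replicate 2, 4 or 5, obese replicate 2 or formerly obese replicate 3.

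Nr3c1 and Nr3c2, the glucocorticoid and mineralocorticoid receptor genes, were the highest steroid receptor genes. Nr3c1 had means of 162 ± 12.97, 175 ± 8.95 and 185 ± 10.3 CPM (SD, n = 5), and its log2 fold change between formerly obese and control mice was 0.18 ± 0.06 (edgeR adjusted p = 0.100), below the fold limit. Nr3c2 had means of 174, 171 and 177 CPM. The oestrogen receptor genes were low, with means of 4.30, 4.72 and 3.90 CPM for Esr1 and of 4.82, 3.88 and 3.59 CPM for Esr2. None of the 4 was called.

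Glucocorticoid target genes went in both directions. Of 8 tested, 1 was called higher and 1 lower between obese and control mice, 3 higher and 1 lower between formerly obese and control mice, and 1 of each between formerly obese and obese mice, with medians of 0.01, -0.03 and -0.04. Fkbp5, a chaperone partner of the receptor, was at 182, 164, 189.8, 187 and 147 CPM in control mice, at 150.3, 198, 203, 226 and 175 CPM in obese mice and at 221, 246, 230.1, 288 and 203 CPM in formerly obese mice. All formerly obese libraries were above all control libraries, and the log2 fold change of 0.45 ± 0.11 (edgeR adjusted p = 0.0350) was called in every fit with 1 library left out. Against obese mice it was 0.32 ± 0.10 (edgeR adjusted p = 0.177), a call lost without obese replicate 1, 2 or 5 or formerly obese replicate 2 or 4 (0.24 to 0.39 over the 15 fits). Sgk1, a kinase that acts on the epithelial sodium channel and belongs to the glucocorticoid and mineralocorticoid lists, was at 134, 152, 130.3, 183 and 179 CPM in control, 185, 204, 260.1, 308 and 223 CPM in obese and 232, 217, 202, 160.1 and 218 CPM in formerly obese mice. Every obese library was above every control library, and formerly obese replicate 4 lay in the control range.

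The log2 fold change of Sgk1 was 0.60 ± 0.13 between obese and control mice (edgeR adjusted p = 0.0918), called except without obese replicate 3 (0.56), and 0.40 ± 0.13 between formerly obese and control mice (edgeR adjusted p = 0.124), a call lost without control replicate 1, 2 or 3 or formerly obese replicate 1, 2, 3 or 5 (0.34 to 0.48 over the 15 fits). Tsc22d3, a mediator of glucocorticoid action, was called higher between formerly obese and control mice (0.29), and Dusp1, named above among the immediate early genes, lower. Zbtb16, a transcription factor gene, was called lower between obese and control mice (-0.60), and Per1, a clock gene, lower between formerly obese and obese mice (-0.43). Tsc22d3 lost its call without control replicate 1 or 3 or formerly obese replicate 2, 3 or 5 (0.23 to 0.33), Zbtb16 without control replicate 2 or obese replicate 3, 4 or 5 (-0.70 to -0.52) and Per1 in 7 of 15 fits, without control replicate 3, obese replicate 1, 2, 4 or 5 or formerly obese replicate 3 or 5 (-0.50 to -0.36). Of 8 mineralocorticoid target genes, Sgk1 was the 1 called gene, with list medians of 0.05, 0.02 and -0.05.

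**Figure D4:**
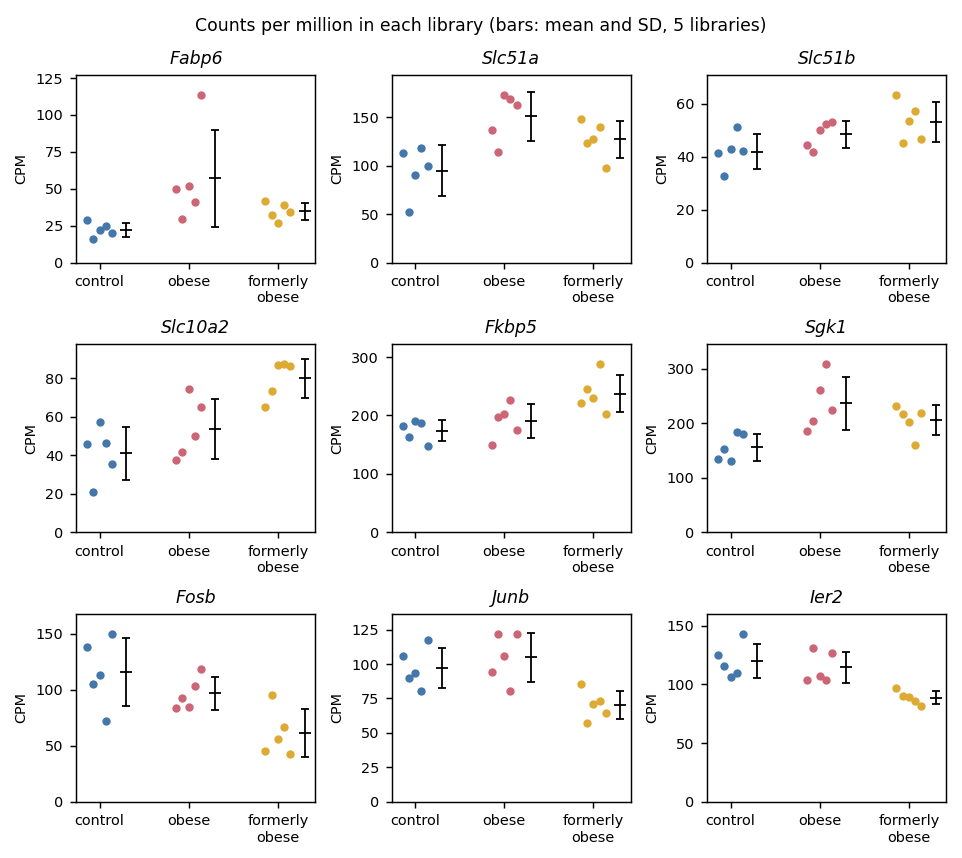
Level in CPM of 9 genes from the bile acid, glucocorticoid and immediate early lists in each of the 15 libraries, with the mean and SD of 5 libraries beside the points. Slc10a2 and Fkbp5 are higher and Ier2 is lower in all formerly obese than in all control libraries, and 1 obese library carries Fabp6 at 114.

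Esrra, which drives genes of mitochondrial energy metabolism, was at 173, 177, 165, 184 and 185 CPM in control mice, at 178, 194, 172, 174 and 190.3 CPM in obese mice and at 168, 155, 159.5, 172 and 140.1 CPM in formerly obese mice. Each formerly obese library was below or level with the lowest obese library to 3 digits, and the groups did not overlap. It differed by -0.20 ± 0.05 between formerly obese and obese mice (edgeR adjusted p = 0.117) and -0.15 ± 0.05 between formerly obese and control mice (edgeR adjusted p = 0.153), both under the fold limit. Between obese and control mice it was 0.04 ± 0.05 (edgeR adjusted p = 0.843), and this sign turned with the GC trend removed (-0.01). Esrrg, its close relative, had means of 19.2, 16.1 and 18.5 CPM and was not called. Of 8 target genes of these receptors 0 were called by edgeR in any comparison, with medians of -0.05, -0.00039 and 0.03. Their smallest unadjusted p was that of Cs, citrate synthase, between formerly obese and obese mice (0.18 ± 0.06, edgeR adjusted p = 0.146).

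The remaining receptors are orphans. Nr5a2, known from crypt renewal and local steroid synthesis, had means of 98.1, 95.3 and 104 CPM, and Nr6a1 of 10.9, 9.78 and 11.7 CPM. Nr2f6 had means of 63.3, 65.3 and 55.7 CPM and Nr2f2 of 31.7, 33.6 and 30.8 CPM. Nr2c2 had means of 94.4, 93.1 and 98.6 CPM, but 3547 of its 8086 exon bases are shared with Mrps25 on the opposite strand, and Nr2c1 of 23.6, 23.0 and 23.2 CPM. Nr2e3, a receptor gene known from the retina, had means of 3.72, 4.09 and 4.01 CPM and Rora of 2.11, 1.62 and 1.89 CPM. None of these 8 genes was called. Nr2f6 had a log2 fold change of -0.23 ± 0.08 between formerly obese and obese mice (edgeR adjusted p = 0.226), and was called in that comparison without obese replicate 4 or without formerly obese replicate 1.

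The receptors act through coregulators. Of 21 coactivator and corepressor genes tested, edgeR called 0 in each of the 3 comparisons, and the list medians were -0.01, 0.05 and 0.02. In the comparisons with control mice, the smallest unadjusted p-values were those of Tbl1x, a corepressor subunit, in obese mice (-0.16 ± 0.05, edgeR adjusted p = 0.212) and of Ncoa3, a coactivator, in formerly obese mice (0.09 ± 0.04, edgeR adjusted p = 0.303).

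GC content moved with the differences of formerly obese mice. Over the 33 tested receptor genes, the GC content of the exons ran from 37.2% in Hnf4g to 67.1% in Nr2f6. Its Spearman correlation with the log2 fold change was -0.49 between formerly obese and control mice and -0.53 between formerly obese and obese mice, but 0.05 between obese and control mice. Over 12942 tested genes with a GC value these were -0.23, -0.27 and 0.03. Genes share libraries and are not independent, so these values are descriptions. After the trend of each library on GC content had been removed, the values over the receptor genes were -0.16, -0.24 and -0.09. In each comparison 6 of 33 then had an unadjusted p under 0.05. Before the removal 11, 11 and 6 had been counted, beside 16.7%, 13.4% and 10.9% of all tested genes. The order is formerly obese against control, formerly obese against obese and obese against control. The share of all tested genes after the removal is not given here. Whether the fall is particular to receptor genes can therefore not be read from these counts. Nr4a1 remained called between formerly obese and control mice and was then the only receptor gene called, while Nr1h4 (0.26) and Hnf4g (0.22) fell under the fold limit. Whether this trend arose in the tissue or in the libraries was not tested.

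**Figure D5:**
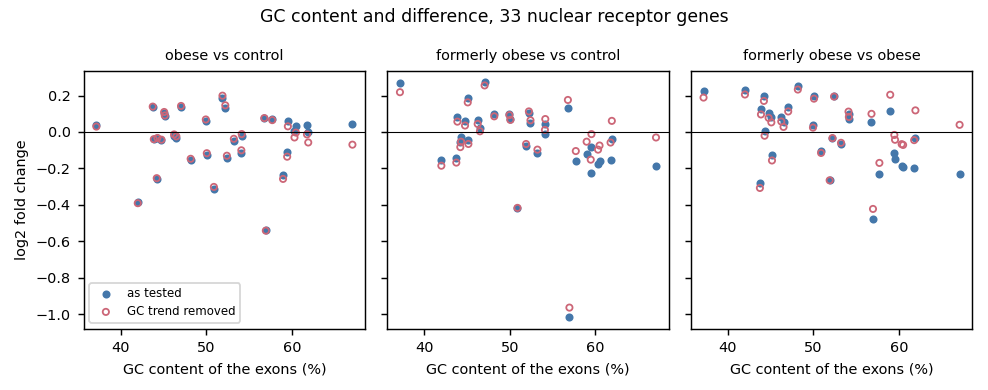
Log2 fold change of the 33 tested nuclear receptor genes against the GC content of their exons (percent) in the 3 comparisons, as tested and with the GC trend of each library removed. GC-rich genes lie lower in both comparisons of formerly obese mice (Spearman -0.49 and -0.53), most of this slope is gone in the open points, and Nr4a1 stays far below the others in the middle panel.

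DNA methylation at these genes was read from the deposited list of 8199 regions that differed between obese and control mice (DMRs), 4123 with more and 4076 with less methylation in obese mice. The list gives positions and directions, and no level per mouse. Of the 43 receptor genes, 15 had a DMR in the gene body or in the 5000 bases before the start, and of the 33 tested receptor genes 12 had one (36.4%), beside 14.5% of all tested genes. Receptor genes are longer than other genes, with a median span of 49284 bases beside 21304 for all tested genes, and no correction for length was made. These 15 genes held 19 DMRs of 4 to 128 bases, 9 with gained and 10 with lost methylation, 17 of them in introns, 2 upstream and 0 in exons. The called genes Nr4a1, Nr1h4 and Hnf4g had none in this region, and of the 9 receptor genes given by library above, Thra and Ppard had one. In these regions Rora held 3 DMRs, Ppard and Esrrg held 2 each, and Esr1, Nr2e3, Nr2f1, Nr2f2, Nr3c1, Nr3c2, Nr5a2, Ppara, Rarb, Rorb, Thra and Thrb held 1 each.

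The DMRs at Thra and Ppard are shown because both genes are described with values above, and that at Nr2f2 because it is one of the pair upstream of a start. They are read from GRCm38 on the plus strand, with CpG sites in capitals. At Thra the region chr11:98762209-98762252 lies in an intron 20357 bases after the start and lost methylation in obese mice.
Thra intron: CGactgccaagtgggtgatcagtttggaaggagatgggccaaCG
At Ppard the intronic region chr17:28240885-28241012, 8194 bases after the start, lost methylation, and chr17:28252091-28252122, 19352 bases after the start, gained it.
Ppard intron, lost: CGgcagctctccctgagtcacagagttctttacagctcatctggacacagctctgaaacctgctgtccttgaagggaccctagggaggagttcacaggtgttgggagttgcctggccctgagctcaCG
Ppard intron, gained: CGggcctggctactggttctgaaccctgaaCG
The region chr7:70370201-70370217, 3463 bases before the start of Nr2f2, gained methylation.
Nr2f2 upstream: CGgtccctctgccctCG
Each of these 4 regions held 2 CpGs, at its ends. In obese mice Thra was lower in expression without a call (-0.24), and Ppard (0.06) and Nr2f2 (0.09) were not called. The other upstream DMR, of 6 bases, lies 199 bases before the start of Nr3c1 and gained methylation. Its sequence is not shown, and Nr3c1 was not called in obese mice (0.11). Methylation of formerly obese mice at these sites was not analysed here.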

How the data were processed

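RNA-seq counts and a list of DMRs were used. The authors made stranded mRNA libraries, aligned read pairs against mm10 with TopHat (version 2.0.4 of TopHat2 in the submitters' processing notes) and deposited raw counts per gene from HTSeq, a column per mouse. The DMR list was deposited as positions and directions, made by the authors with Bismark and a Rao-Scott likelihood ratio test. Bisulfite amplicons, which held no CpG within 50000 bases of a member, and the authors' DESeq2 tables of fold changes and p-values were not used. Counts were analysed in R 4.3.3 with edgeR 4.0.16 (filterByExpr, TMM, quasi-likelihood test, two-sided) with all 15 libraries in 1 fit, and adjusted over 12961 genes. CPM are counts per 1000000 of the TMM-scaled total. Exon lengths, GC content and sequences came from RefSeq GRCm38.p6, the build of the files. Groups and replicate numbers came from the labels. The fit was checked on simulated counts, and DESeq2 1.42.0, other scalings and filters, a replicate block, removal of the GC trend and leaving out each library were tried. Labels do not say whether mice shared litters or cages.

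The members, the target and marker lists and the rule for naming genes were chosen with earlier results of these data known. Values per library were given for receptor genes called in any comparison, the 3 with the smallest p in each and the 5 highest per kilobase, and called genes of each list were named, or otherwise the gene with the smallest p in a comparison. The strand setting of HTSeq and the annotation release are not given in the sources used here, so overlapping genes are uncertain. The depth of 15230391 to 22762095 counts per library limits genes of low level most. Some genes of the lists are not reported here by name.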

Additional observations from a re-analysis of the deposited data

Results flagged for a closer look

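In 99 sets of 5 libraries (33 receptor genes in 3 groups), 4 had 1 library far from the other 4 by Dixon's gap test on log2 CPM at the 95% level, which chance alone gives in about 1 of 20 sets. Rora was at 0.616 CPM in control replicate 4 and at 2.29 to 2.99 CPM in the other control libraries (gap 0.824 of the range). Esr1 was at 5.32 CPM in formerly obese replicate 4 and at 3.38 to 3.76 CPM in the others (0.765). Nr2f6 was at 57.9 CPM in obese replicate 4 and at 65.7 to 68.4 CPM in the others (0.753), and without that library it was called lower in formerly obese than in obese mice. Nr4a1 was at 5.36 CPM in formerly obese replicate 1 and at 9.98 to 12.7 CPM in the others (0.717), and its call against control mice held without that library.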

How the results depend on the processing

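Nr4a1 was called between formerly obese and control mice in each of the 24 alternatives, Nr1h4 in 16 and Hnf4g in 17. The number of receptor genes called in that comparison, 3, was 1 with upper-quartile scaling and 1 with the GC trend removed, and 1 to 3 without 1 library. Between obese and control mice it was 1 with DESeq2 and 1 with only the compared groups in the fit, and 0 to 1 without 1 library, as it was between formerly obese and obese mice. Over all genes, calls at an adjusted p under 0.05 with no fold limit were 16, 282 and 25 in place of 205, 482 and 343. At the main cutoffs, calls without 1 library ran from 40 to 331, from 362 to 660 and from 167 to 400. The median over receptor genes between formerly obese and obese mice was -0.0262 with no filter on low counts. It was then taken over 42 receptor genes in place of 33, so the set of genes differed. The log2 fold change of Esrra between obese and control mice turned to -0.0132 with the GC trend removed. Counting DMRs within 50000 bases of the gene gave 30 receptor genes in place of 15. Of the 33 tested receptor genes 24 then had one (72.7%), beside 43.8% of all tested genes. Correlations of the deviations of same-numbered samples ran from -0.23 to 0.33, so the numbers were not taken to pair the mice. The replicate block gave 252, 537 and 346 calls over all genes and 0, 2 and 0 receptor genes, with Hnf4g lost (0.26). The cause of these shifts was not tested. Low receptors such as Rora and Esr1 are limited by depth.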

Other observations

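Lists of epithelial cell types not described above are given here. Of 5 stem cell and 6 proliferation genes 0 were called by edgeR in any comparison. Of 6 goblet cell genes Spink4 was called higher between obese and control mice (log2 fold change 0.34), in 8 of 15 fits with 1 library left out (0.27 to 0.40), and of 6 enteroendocrine genes Pyy was called lower between formerly obese and obese mice (-0.35), in 9 of 15 such fits (-0.41 to -0.28). Colonocyte genes of the surface, where Pparg is known to act, included 2 of 6 tested that were called higher in formerly obese mice. Car4, a carbonic anhydrase, was called against control (0.34) and against obese mice (0.37) in every fit with 1 library left out, and Slc26a3, the chloride and bicarbonate exchanger, was called against obese mice (0.62) in every such fit and against control (0.41) except without control replicate 5 or formerly obese replicate 5 (0.36 and 0.33). Krt20, a keratin of the epithelial list, was called higher against control (0.55), except without control replicate 1 (0.48). The part of a shift toward surface cells in the receptor results was not tested.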
